A study of Mus musculus with 27 samples.

Results

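Germline genes are usually silent outside the germ line, but several of them are transcribed in cultured mouse stem cells. The 10 genes described here, Rnf17, Tdrd1, Tdrd12, Stk31, Mael, Ddx4, Dazl, Sycp3, Khdc3 and Ct55, were taken from a table of 25209 genes because they are germline or oocyte genes and some of them are expressed in naive stem cells. They were selected on being germline genes and on their level in naive cells, with earlier results of these same data on KO against WT in view, so their values are given as a description, without p-values. RNA was sequenced from V6.5 mouse embryonic stem cells (mESCs), either wild type (WT) or from Zfp512b knockout (KO) clones #4 and #8, called KO4 and KO8. Each was sampled at day 0 in the naive state (2iLIF medium) and at day 2 after priming. Further samples were taken at day 10 of differentiation towards neural progenitor cells (NPC) and at day 7.5 of differentiation towards beating cardiomyocytes (CM). After priming, retinoic acid was added in the NPC arm only and vitamin C in the CM arm only. Each naive group had 3 libraries and each other group had 2, which makes 27 in all. Both clones carried a triple transcriptional terminator after the third exon of Zfp512b, next to an mCherry or puromycin resistance gene. Each KO group was a single clone, and the WT cells had not been through editing and selection, so an effect of the targeted gene and a property of the clone or of selection cannot be told apart.

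The products of most of these genes meet in nuage, the perinuclear granules of germ cells where piRNAs, small RNAs that silence transposons, are made and loaded. Rnf17, Tdrd1, Tdrd12 and Stk31 encode Tudor domain proteins, Mael encodes a further piRNA pathway protein, and Ddx4 encodes the germ cell RNA helicase also called Vasa. Dazl encodes an RNA-binding protein that controls translation in germ cells, Sycp3 a structural protein of the meiotic chromosome axis, and Khdc3 (also called Filia) a maternal factor of the oocyte that is also present in stem cells. Ct55 is a cancer/testis gene of the X chromosome. In somatic cells and stem cells such genes are known to be held down by promoter DNA methylation, by H3K9 methylation and by the polycomb complex PRC1.6, whose MGA and MAX subunits bind the E-box CACGTG.

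The 10 genes lie on 10 different chromosomes. In mm9, the build the authors aligned to, Mael was found at chr1:168131516-168168875, Stk31 at chr6:49345603-49419500, Tdrd12 at chr7:36254117-36322764, Khdc3 at chr9:72949643-72952250 and Sycp3 at chr10:87922314-87935981. Ddx4 was found at chr13:113388541-113442518, Rnf17 at chr14:57021534-57143869, Dazl at chr17:50418719-50432924, Tdrd1 at chr19:56900699-56944502 and Ct55 at chrX:51028003-51041618. All are protein-coding, and Mael, Tdrd12, Ddx4 and Dazl lie on the minus strand. Promoters of 300 bases (250 before to 50 after a RefSeq start, GRCm38.p6) were at hand for 9 of the 10 genes, all but Rnf17. The E-box CACGTG, which reads the same on both strands, stood in a promoter of 6 of the 9, against 7.15% of all 32851 promoters in the table and 10.9% of the 14281 promoters with at least 10 CpG sites. The stretches around these E-boxes are shown because they are what the promoters of most members share beyond the rule that chose them. They run 5′ to 3′ in the direction of the gene, with the E-box in capitals, and each matched its mm9 chromosome exactly and once, at chr19:56900661-56900720 (Tdrd1), chr6:49345456-49345515 (Stk31), chr1:168169066-168169125 (Mael), chr13:113442515-113442574 (Ddx4), chr10:87922241-87922321 (Sycp3) and chrX:51027928-51027987 (Ct55).
Tdrd1: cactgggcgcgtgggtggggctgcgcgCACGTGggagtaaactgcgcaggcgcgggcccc
Stk31: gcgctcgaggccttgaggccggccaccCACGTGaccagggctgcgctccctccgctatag
Mael: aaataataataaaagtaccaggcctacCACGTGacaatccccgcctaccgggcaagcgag
Ddx4: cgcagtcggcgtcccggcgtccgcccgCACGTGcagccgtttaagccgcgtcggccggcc
Sycp3: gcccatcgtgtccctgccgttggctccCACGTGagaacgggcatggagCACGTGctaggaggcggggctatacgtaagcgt
Ct55: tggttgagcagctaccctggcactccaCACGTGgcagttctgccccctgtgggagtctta

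Counted from the start of transcription, the E-box began at position -11 or -77 in Tdrd1 and at -55 or -120 in Stk31, each of which has 2 starts that share the same E-box, at -223 in Mael, at -29 in Ddx4, at -64 and -43 in Sycp3 and at -53 in Ct55. The third Tdrd1 promoter held none, and neither did those of Tdrd12, Dazl and Khdc3. The longer form TCACGTGA, found in 0.974% of all promoters, stood in none of the stretches shown. An E2F site (TTCCCGCC or GGCGGGAA), found in 2.19% of all promoters, was present in that of Ddx4 alone. CpG sites numbered 38 in the Ddx4 promoter, 29 and 28 in the pair of Stk31, 28 in Dazl, 24 in Mael, 20 and 25 in the first pair of Tdrd1 and 15 in Sycp3, against a median of 7 over all promoters. Tdrd12 had 11 and 9, Ct55 had 7, and Khdc3 had none. These matches describe letters in a window, and no binding or methylation was measured here.

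The values come from the tables the authors deposited, in which each gene has a base mean, the average of size-factor normalised reads over the libraries of 1 KO clone and WT. Whole reads per library were recovered from the base means of both tables of a stage, as the processing notes describe, and divided by the authors' size factors to give normalised reads, set on 1 scale within a stage. This worked for 30 of the 40 pairs of member and stage. For Rnf17, Khdc3, Dazl, Ddx4, Tdrd12, Sycp3, Stk31 and Ct55 in naive cells, and for Rnf17 and Tdrd12 in primed cells, the level was too high for a single solution and only base means are given. The recovered libraries could be placed in their group but not matched to a replicate number, so they are called a, b and c. Libraries held about 34.2 to 39.7 megareads in naive cells and 15.1 to 19.3 megareads at the other stages. The labels do not say whether the libraries of a group came from separate cultures.

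Zfp512b, the targeted gene, was checked first. Primed WT libraries had 929 and 977 normalised reads, against 191 and 219 in KO4 and 184 and 154 in KO8. CM libraries had 1118 and 1060.1 in WT, 184 and 209 in KO4 and 155 and 173 in KO8. The log2 difference from WT lay between -2.22 and -2.73 at these stages, and every KO library was below every WT library. In naive cells and NPCs Zfp512b had base means only, and these do not separate KO from WT.

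Each member was highest in naive or in primed cells. The members were chosen partly on their level in naive cells, so this profile is a description and not a finding independent of the choice. The stages were normalised separately, so levels across them are set side by side in ppm of the summed base means of a table, with no test. In the KO4 tables Tdrd12 stood at 167 ppm in naive cells and 140.2 in primed cells, against 2.35 in NPCs and 8.98 in CMs. Rnf17 stood at 94.0 and 96.2 ppm in naive and primed cells and at 5.94 and 5.31 in NPCs and CMs. Khdc3 stepped down already at priming, from 119 ppm in naive cells to 24.9 in primed cells, and was at 0.174 in NPCs and 0.738 in CMs.

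Other members were higher in primed than in naive cells. Mael went from 2.16 ppm in naive to 11.3 in primed cells, Tdrd1 from 0.333 to 3.203 and Ddx4 from 8.58 to 21.4. Stk31 (10.6 and 11.2) and Dazl (9.25 and 8.98) were at like levels in both states. Dazl stood at 5.51 ppm in NPCs, which had received retinoic acid, and at 0.464 in CMs. Ct55 had 3.70 ppm in naive cells, 1.78 in primed cells, 0.517 in NPCs and 0.114 in CMs, and Sycp3 had 3.29, 4.94, 0.979 and 0.895. The KO8 tables also had each of the 10 members highest in naive or primed cells. For Dazl the NPC level in the KO8 table, 9.49, was close to the primed level of 9.74.

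**Figure D1:**
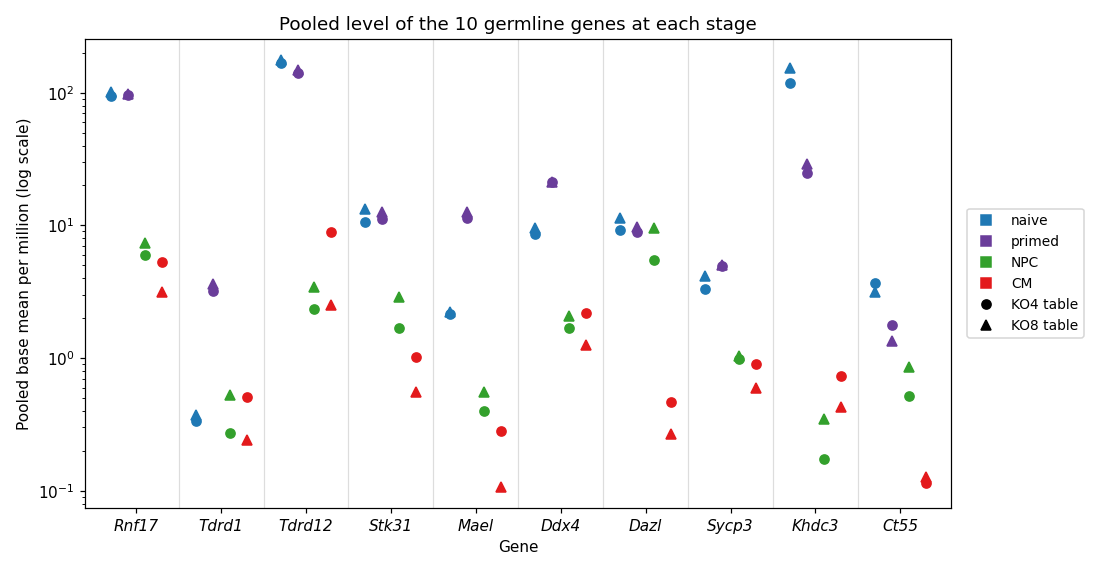
Pooled level of each gene at each stage, as the base mean in ppm of the summed base means of its table, on a log scale. Circles are KO4 tables and triangles are KO8 tables, each the average of 1 clone and WT. Most genes sit highest in naive or primed cells, and the genes were chosen partly on their level in naive cells. In CMs the KO4 table lies above the KO8 table for all members but Ct55. Values are not per gene length, so heights are not compared between genes.

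WT libraries alone gave the spread where reads were recovered, here as normalised reads in ppm of the same sums. Mael in WT had 2.71 ± 0.122 ppm in naive cells (SD, n = 3), 15.2 ± 1.84 in primed cells (n = 2), 0.535 ± 0.120 in NPCs and 0.216 ± 0.159 in CMs, and NPC and CM libraries overlapped. Tdrd1 in WT had 2.70 ± 0.146 ppm in primed cells, while its naive (0.202 to 0.526), NPC (0.225 to 0.248) and CM (0.219 to 0.415) libraries overlapped. Khdc3 in WT was ordered as primed (34.1 ± 0.453), CM (0.753 ± 0.331) and NPC, where it had 2 reads in 1 library and none in the other. Dazl in WT stood at 8.20 ± 1.16 in primed cells, 5.54 ± 0.120 in NPCs and 0.268 ± 0.0858 in CMs, with no overlap between these stages. Ddx4 in WT was at 17.45 ± 1.87 in primed cells, and its NPC (1.18 to 2.17) and CM (1.53 to 2.65) libraries overlapped.

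In naive cells, Mael was lower in both clones; it is the 1 recovered pair with several candidate sets of reads, 5 of them, of which the best held all but a negligible part of the weight. Its WT libraries had 93.7, 97.0 and 102 normalised reads, those of KO4 had 67.4, 53.9 and 54.2, and those of KO8 had 73.2, 51.6 and 60.9. All 6 KO libraries lay below all 3 WT libraries, with a log2 difference of -0.74 ± 0.11 (SE) for KO4 and -0.67 ± 0.15 for KO8, and the clones overlapped each other. Tdrd1 was near the limit of what could be counted, with 7.28, 19.0 and 9.41 normalised reads in WT, 8.79, 16.3 and 11.5 in KO4 and 16.8, 11.9 and 15.8 in KO8. The 3 groups overlapped, though without WT library b KO8 lay above WT. Over all genes with at least 5 normalised reads on average, 8.02% were below and 10.8% above WT in both clones without overlap in naive cells. In KO4 16.6% were above and 16.1% below WT, and in KO8 20.3% were above and 13% below. Nothing is read from the members' place among these shares.

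For the other 8 members in naive cells, the base means of both tables share the WT libraries, so the difference between the clones follows from them while the difference from WT does not. Khdc3 had base means of 4308 in the KO4 table and 5499 in the KO8 table, which puts the KO8 mean 2362.5 to 2369.9 normalised reads above the KO4 mean and at least 1.27 times as high. Sycp3 was at least 1.26 times, Stk31 at least 1.23 times, Dazl at least 1.225 times and Ddx4 at least 1.11 times as high in KO8 as in KO4. Rnf17 (at least 1.06 times) and Tdrd12 (at least 1.05 times) had the lowest bounds. Ct55 went the other way and was at least 1.17 times as high in KO4. The bounds come from the scaling of the WT libraries and hold for any WT level, but no spread between libraries stands behind them.

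In primed cells, 6 of the 8 members with recovered reads differed from WT in the same direction in both clones. Ddx4, Dazl, Tdrd1 and Ct55 were higher in both clones, and Khdc3 and Mael were lower in both. The libraries of these genes did not overlap between WT and either clone. For Tdrd1 in KO4 this rests on scaling alone, as KO4 library a and WT library a had 51 reads each. Over all genes, 15.7% were higher and 19.3% were lower in both clones without overlap, with 25.6% higher and 30.7% lower in KO4 and 24.2% higher and 28.6% lower in KO8. Since the members were chosen with these contrasts known, nothing is read from how their count compares with that share. Markers of cell state also differed in both clones. By limma, Tbx3, the 1 of 8 naive pluripotency markers with recovered reads here, had log2 differences of -0.59 in KO4 and -0.68 in KO8. Of the 3 primed markers tested, Otx2 fell, at -0.65 and -0.42. Of the neural markers, Sox1 rose in both clones, at 1.29 and 0.84, and Nes in KO8. The largest limma adjusted p among these values of Tbx3, Otx2 and Sox1 was 0.000571, and their part in the germline gene values was not tested.

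Ddx4, the helicase, had 324 and 278 normalised reads in primed WT libraries, 465 and 411 in KO4 and 409 and 448 in KO8. The clones overlapped each other at 1.455 (KO4) and 1.42 (KO8) times the WT mean, with log2 differences of 0.54 ± 0.14 and 0.51 ± 0.13. Dazl had 127 and 156 in WT, 169 and 168 in KO4 and 199 and 189.6 in KO8. Here KO8 also lay above KO4, and the log2 differences from WT were 0.26 ± 0.14 in KO4 and 0.46 ± 0.15 in KO8. Tdrd1, a scaffold of the piRNA machinery in nuage, had 48.5 and 44.9 in WT, 51.9 and 75.9 in KO4 and 74.5 and 82.2 in KO8. The KO4 libraries disagreed, 1 of them being close to WT, and the log2 difference was 0.42 ± 0.28 in KO4 against 0.74 ± 0.09 in KO8. The KO4 value was 0.70 without KO4 library a and 0.15 without library b.

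Ct55 had the largest ratio and the widest spread. WT libraries had 20.9 and 5.99 normalised reads, KO4 44.8 and 51.3, and KO8 25.2 and 41.1. The lowest KO8 library was close to the higher WT library, and the log2 difference was 2.04 ± 0.87 in KO4 and 1.47 ± 0.93 in KO8. It moved with the WT library left out: without WT library a it was 2.90 in KO4 and 2.33 in KO8, and without WT library b 1.18 and 0.61. Stk31, a Tudor domain gene with a kinase-like domain, had 193 and 189.6 in WT and 181 and 207 in KO4, which overlap, and 237 and 248.96 in KO8, which lie above both, at a log2 difference of 0.34 ± 0.04 for KO8. Sycp3 had 104 and 78.8 in WT, 80.4 and 77.96 in KO4 and 71.5 and 90.2 in KO8, and all groups overlapped.

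Khdc3 and Mael were lower after priming of the KO clones. Khdc3 had 595 and 584 normalised reads in WT, 278 and 266 in KO4 and 422 and 411 in KO8. Its 3 groups were well apart, KO4 lowest, with log2 differences of -1.12 ± 0.04 for KO4 and -0.50 ± 0.02 for KO8. Mael had 240.5 and 285 in WT, 119 and 137 in KO4 and 160.2 and 182 in KO8. The order was again WT, KO8, KO4, with log2 differences of -0.62 ± 0.15 for KO8 and -1.03 ± 0.16 for KO4. Mael was thus below WT in both clones in naive and in primed cells.

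Rnf17 and Tdrd12 in primed cells were known only as base means. Rnf17 had 1660.3 in the KO4 table and 1653.3 in the KO8 table, from which the KO8 mean was 63.6 to 70.9 normalised reads above the KO4 mean, a ratio of at least 1.02. Tdrd12 had 2420.5 and 2476, which puts KO8 above KO4 by 228 to 239 normalised reads, a ratio of at least 1.05. These differences have no spread between libraries and no WT value beside them.

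**Figure D2:**
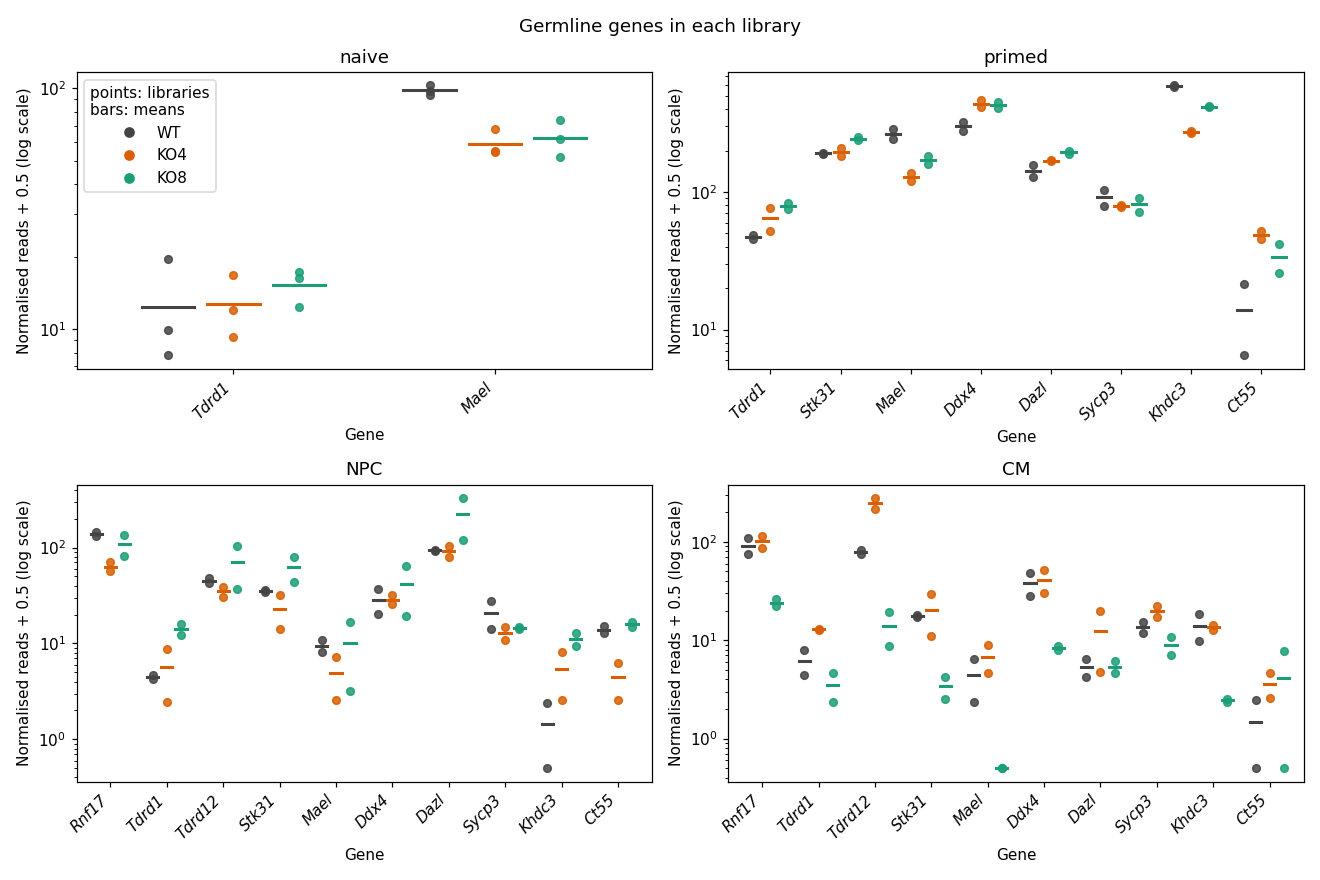
Normalised reads of each germline gene in each library, with 0.5 added, on a log scale, for naive, primed, NPC and CM samples. Points are libraries (3 a group in naive cells, 2 elsewhere) and bars are group means of WT (grey), KO4 (orange) and KO8 (green); in primed cells Khdc3 and Mael sit below WT in both clones, and in CM samples KO8 sits below WT for 7 of the 10 genes.

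In NPCs the clones differed from WT in different ways, and the KO8 libraries differed from each other. KO4 libraries were below both WT libraries for 5 of the 10 members (Rnf17, Tdrd12, Stk31, Mael and Ct55) and above them for Khdc3. KO8 libraries were above both WT libraries for 4 (Tdrd1, Stk31, Dazl and Khdc3) and below them for none. Over all genes, 26.1% were higher and 27.7% lower than WT in KO4 without overlap, and 27% higher and 25.5% lower in KO8, with 15.8% higher and 14.2% lower in both, and nothing is read from the comparison of the members with these shares. Khdc3 alone was outside the WT range in the same direction in both clones. In KO4 this rests on scaling alone, as its library b and WT library a had 2 reads each. The place of Tdrd12 below WT in KO4 also rests on scaling alone, as KO4 library a and WT library b had 40 reads each. Without KO4 library a, 3 members were above WT in both clones, without KO8 library b 3 were below in both and without WT library b 2 were. The count above WT in KO8 became 8 without KO8 library a, and the count below became 5 without KO8 library b and 2 without WT library b. The count above WT in KO4 became 3 without KO4 library a and 2 without WT library b. A group left with 1 library separates from the other more easily.

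KO8 library b stood apart. It lay above both WT libraries for 8 of the 10 members and below for none, whereas library a lay above for 4 and below for 5. Of these 5, the places of Tdrd12, Ddx4 and Sycp3 rest on scaling alone. They had 41, 21 and 15 reads in library a, against 40, 21 and 13 in the WT library with the fewest reads. The 10 genes summed to 783 normalised reads in library b and 353 in library a, against 393 and 379 in WT and 264 and 279 in KO4. Naive pluripotency markers moved with this. Of 8 fixed markers, 7 had recovered reads (Nanog, Klf4, Zfp42, Esrrb, Tfcp2l1, Klf2 and Nr0b1) and none was at 0, and all 7 were above both WT libraries in KO8 library b. Their sum was 3660 normalised reads in that library and 2165 in KO8 library a, against 1476 and 2275 in WT and 1430 to 1498 in KO4. In a bulk sample, fewer cells of a type and less RNA per cell cannot be told apart, and the part of these markers in the values of the germline genes was not tested. Neural progenitor markers differed as well. By limma, Pax6, Sox1 and Neurog2 rose in KO4, and Pax6 and Sox1 rose in KO8. Pax6 went from a WT mean of 174 normalised reads to 414 in KO4 and from 181 to 415 in KO8, and Sox1 from 60.7 to 203 and from 63.1 to 335. Sox3, of the primed list, rose in both clones. The part of these markers was not tested either. Primordial germ cell markers (Nanos3, Dnd1, Prdm1, Prdm14 and Tfap2c, none at 0) summed to 559 to 569 in WT, 779 to 827 in KO4 and 693 to 1162 in KO8. Prdm1 and Tfap2c held most of this sum, with WT means of 220 and 241 normalised reads. By limma Tfap2c alone was called, as higher in KO4, and no marker of this list was called in KO8. Log2 differences in KO4 were 0.80 for Tfap2c, 0.42 for Prdm1, 0.14 for Nanos3, -0.07 for Dnd1 and -0.70 for Prdm14.

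Dazl showed the library most plainly. It had 94.7 and 91.8 normalised reads in NPC WT libraries and 80.1 and 104 in KO4, and in KO8 it had 121 in library a and 327 in library b. The log2 difference of KO8 from WT was 1.09 ± 0.72, 0.37 without library b and 1.81 without library a. Stk31 had 34.1 and 35.5 in WT, 13.5 and 31.3 in KO4 and 43.2 and 79.7 in KO8, so that KO4 lay below and KO8 above WT. Its log2 difference was -0.74 in KO4, -0.15 without KO4 library a and -1.33 without KO4 library b, and 0.75 in KO8, 0.31 without KO8 library b and 1.19 without KO8 library a. Tdrd1 had 3.79 and 4.17 in WT, 1.93 and 8.35 in KO4 and 11.7 and 15.4 in KO8. Both KO8 libraries were above WT, at a log2 difference of 1.64 ± 0.20, which was 1.45 without library b.

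Rnf17 had 144 and 130.4 normalised reads in WT and 69.5 and 56.3 in KO4, 0.459 times the WT mean. In KO8 it had 81.9 in library a, which is below WT, and 133 in library b, which lies between the WT libraries. Tdrd12 had 47.3 and 41.7 in WT, 38.6 and 30.3 in KO4 and 36.9 and 103 in KO8. Library a alone lay below WT for Rnf17, Tdrd12, Mael, Ddx4 and Sycp3, at log2 differences of -0.74, -0.26, -1.55, -0.50 and -0.50. With both libraries these genes overlapped WT.

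The remaining members were low in NPCs. Ct55 had 12.3 and 14.6 normalised reads in WT, 5.79 and 2.09 in KO4 and 14.4 and 16.3 in KO8. KO4 was below WT at a log2 difference of -1.79 ± 0.65, which was -1.14 without KO4 library b. Khdc3 had 2 reads in WT in all, 10 in KO4 and 23 in KO8, a ratio to WT of 5.05 (95% exact interval 1.08 to 47.4) for KO4 and of 10.8 (2.66 to 94.2) for KO8. These intervals cover counting error only. Mael (7.57 and 10.4 in WT, 6.76 and 2.09 in KO4, 2.70 and 16.3 in KO8), Ddx4 (19.9 and 36.5 in WT, 18.9 and 64.3 in KO8) and Sycp3 (13.6 and 27.5 in WT, 10.4 and 14.5 in KO4) had libraries that spread more than the group means differed. Both KO4 libraries of Mael still lay below WT, with 7 reads in the nearest KO4 library and 8 in the nearest WT library.

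**Figure D3:**
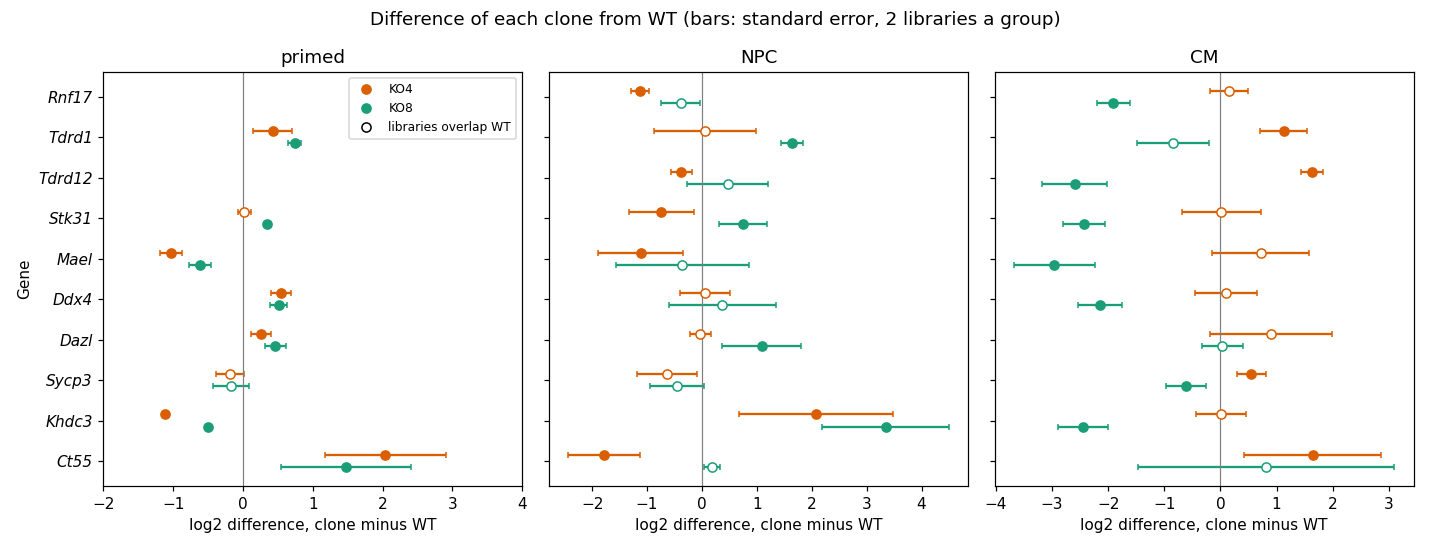
Log2 difference of each clone from WT for each germline gene in primed, NPC and CM samples, computed on log2 of normalised reads plus 0.5. Points are KO4 (orange) and KO8 (green), bars are standard errors over 2 libraries a group, and open points mark groups whose libraries overlap WT; in CM samples the filled points of KO4 and KO8 lie on opposite sides of 0 for Tdrd12 and Sycp3, and the KO8 point of Mael, which had no read there, depends on the added 0.5.

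In CM samples the clones moved apart. KO8 libraries lay below both WT libraries for 7 of the 10 members (Rnf17, Tdrd12, Stk31, Mael, Ddx4, Sycp3 and Khdc3) and above them for none. KO4 libraries lay above both WT libraries for 4 (Tdrd1, Tdrd12, Sycp3 and Ct55) and below them for none. For Ct55, KO4 library b and WT library b had 2 reads each, so its place above WT rests on scaling alone. Between the clones, KO8 was below KO4 for 8 of the 10, with Dazl and Ct55 overlapping. The KO4 count of 4 became 8 without WT library b or without KO4 library b. Many other genes also separated at this stage: 31.7% of all genes were below and 29.6% above WT in KO8, 35.2% were above and 41% below WT in KO4, 13.7% were above and 18.4% below WT in both clones, and 36.6% were lower in KO8 than in KO4, each without overlap. These shares cover genes with at least 5 normalised reads on average, which 8 of the 10 members reached and Mael and Ct55 did not. The members' counts are a description beside these shares.

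Tdrd12, whose protein takes part in secondary piRNA production, lay on opposite sides of WT in the clones. It had 81.1 and 74.9 normalised reads in CM WT libraries, 277 and 212 in KO4 and 18.8 and 8.19 in KO8. KO4 was at 3.14 times and KO8 at 0.173 times the WT mean, with log2 differences of 1.63 ± 0.20 and -2.60 ± 0.58. The 3 groups were far apart. Sycp3 had 11.2 and 14.8 in WT, 21.6 and 16.8 in KO4 and 6.57 and 10.2 in KO8. It had the same order as Tdrd12 with smaller steps, log2 differences of 0.55 ± 0.26 and -0.62 ± 0.36, which became 0.36 without WT library a and -0.32 without KO8 library a.

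Rnf17 had 74.6 and 107 normalised reads in WT, 115 and 85.2 in KO4 and 21.6 and 25.6 in KO8. KO4 overlapped WT, and KO8 was at 0.259 times the WT mean. Ddx4 followed the same pattern, with 47.6 and 27.6 in WT, 51.3 and 29.4 in KO4 and 7.51 and 8.19 in KO8. Its log2 difference in KO8 was -2.14 ± 0.39. Stk31 had 17.7 and 16.7 in WT, 28.7 and 10.5 in KO4 and 3.76 and 2.05 in KO8, and Khdc3 had 9.32 and 17.7, 12.3 and 13.7, and 1.88 and 2.05. Both overlapped WT in KO4, and in KO8 they stood at 0.168 and 0.145 times the WT mean.

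The lowest members carried few reads in CM samples. Mael had 8 reads in WT and none in either KO8 library; against a floor of 3 reads over the group, KO8 was at least 2.61-fold lower. Tdrd1 had 7.46 and 3.94 normalised reads in WT, 12.3 and 12.6 in KO4 and 1.88 and 4.10 in KO8, so that KO4 lay above WT and KO8 overlapped it. Dazl had 3.73 and 5.91 in WT, 19.5 and 4.21 in KO4 and 5.63 and 4.10 in KO8, and the groups overlapped. Ct55 had 2 reads in WT, 6 in KO4 and 7 in KO8, with ratios to WT of 3.25 (95% exact interval 0.582 to 32.9) and 3.58 (0.681 to 35.3), so no difference was detectable at this depth.

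Naive pluripotency markers also separated the CM groups. The same 7 markers, none at 0, summed to 2839 and 2929 normalised reads in WT, 4867 and 3451 in KO4 and 1223 and 1161 in KO8. The 10 germline genes summed to 255 and 277 in WT, 546 and 395 in KO4 and 67.6 and 71.7 in KO8. Tdrd12 alone held 277 and 212 of the KO4 sums, against 81.1 and 74.9 of the WT sums. The KO4 sums therefore describe mostly this gene and not the set. By the limma test described with the wider list, 6 of the 7 fell in KO8 (Nanog, Esrrb, Zfp42, Nr0b1, Klf2 and Klf4), while in KO4 Nanog, Esrrb, Zfp42 and Nr0b1 rose and Klf4 and Klf2 fell. The eighth marker of the list, Tbx3, had base means only, 474 in the KO4 table and 1138 in the KO8 table, which puts its KO8 mean above both its WT mean and its KO4 mean. Nanog, a core factor of the naive state, had a limma log2 difference of 1.603 ± 0.17 in KO4 (adjusted p = 0.000194) and of -1.456 ± 0.20 in KO8 (adjusted p = 0.001). The CM marker Myl2, a ventricular myosin light chain and the single marker of its list with recovered reads, summed to 909 to 1129 in WT, 0 to 2.05 in KO4 and 165 to 205 in KO8. The part of these markers in the germline gene values was not tested.

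**Figure D4:**
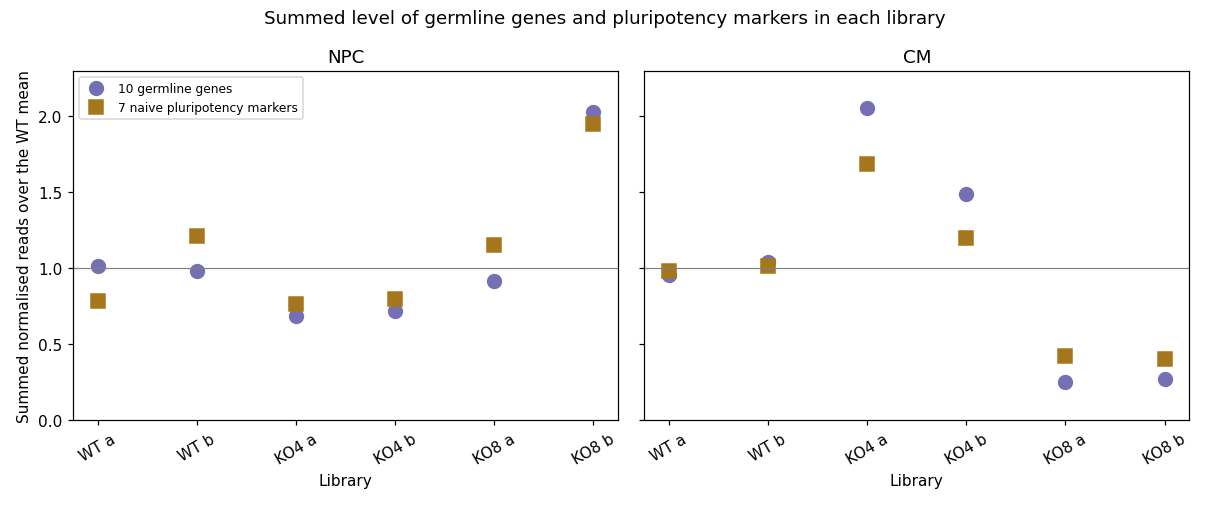
Summed normalised reads of the 10 germline genes (circles) and of 7 naive pluripotency markers (squares) in each NPC and CM library, divided by the mean of the 2 WT libraries of the stage. In NPCs, KO8 library b lies at 2.03 for the germline genes and 1.95 for the markers. In CM samples both KO4 libraries lie above 1 and both KO8 libraries lie below 0.5 for both sets. Tdrd12 is the largest part of the germline sums of KO4 in CM samples.

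A wider list of germline genes was set beside the 10 genes. The list held 88 genes of the piRNA pathway and nuage, of meiosis, of primordial germ cells and of the oocyte, of which 87 were in the tables, and none of the 10 members is on it. Each clone was compared with WT at each stage by limma on log2 of normalised reads plus 0.5, with Benjamini-Hochberg adjustment over all genes that had recovered reads and a mean of at least 5, and a gene was called at an adjusted p under 0.05. The list was drawn up with earlier results of these data known. Comparisons of KO4 and KO8 at a stage share their WT libraries.

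In CM samples, 19 of the 48 list genes tested rose and 4 fell in KO4, against 21.4% and 26.4% of all genes. The median log2 difference of the list was 0.91, against -0.04 over all genes tested. Genes were tested on their mean over WT and the clone, so some with a WT mean under 5 entered through KO4. These were Tdrd9, Msh4, Syce1, Tex11, Fkbp6, Sohlh2 and Zp3, all higher in KO4, and Nlrp4f, at -0.37. Sohlh2 alone of these is among the 19. Sycp2 and Boll, which fell, had KO4 means under 5 and entered through WT. The same filter applied in KO8 and over all genes. In KO8, 2 of 42 rose and 10 fell, against 10% and 10.9% of all genes, and the medians were -0.29 and -0.02. In KO4 the genes that rose were 7 of 15 tested in the piRNA and nuage part, 6 of 19 in the meiosis part, 5 of 10 in the primordial germ cell part and 1 of 4 in the oocyte part. In KO8 the genes that fell were 3 of 12, 1 of 16, 5 of 9 and 1 of 5 in the same parts.

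Dppa2, Dppa3, Dppa4, Tfap2c, Morc1, Tex14 and Ooep rose in KO4 and fell in KO8 at this stage; they were singled out after their values were seen. They make 7 of the 39 list genes tested in both clones, against 1.56% of all genes. Dppa4, which with Dppa2 activates early embryonic genes and is expressed in stem cells as well as in germ cells, had a mean of 82.1 normalised reads in WT and 308 in KO4, and 25.1 in KO8, with log2 differences of 1.87 ± 0.26 (limma adjusted p = 0.000726) and -1.73 ± 0.31 (adjusted p = 0.00391). Syce2, of the synaptonemal complex, rose in both clones, by 1.458 and 1.08 on the log2 scale. Mov10l1, the helicase that starts piRNA biogenesis, fell by 3.72 in KO4 and by 1.03 in KO8 on the log2 scale, from a WT mean of 116; a heart transcript of this locus is also known. Among the 39 list genes, Syce2 and Mov10l1 were the only ones whose calls had the same sign in both clones, against 3.48% of all genes higher and 7.09% lower in both. The KO4 count of 23 called genes was lower without either WT library or without KO4 library a, as was the count over all genes.

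In primed cells, 5 of 59 list genes rose and 11 fell in KO4, and 6 of 57 rose and 8 fell in KO8. Of all genes, 6.96% rose and 10% fell in KO4, and 7.29% rose and 7.35% fell in KO8. Medians of the list were -0.17 and -0.08, against -0.03 and -0.03 over all genes. Both clones shared 8 calls, of which 6 are named here, against 4.28% of all genes higher and 4.91% lower in both. Piwil2, a PIWI protein of the piRNA pathway, rose by 0.46 in KO4 and 0.43 in KO8 on the log2 scale. Prdm14, Kit and Tfap2c of the primordial germ cell part fell, with log2 differences of -0.63 and -0.72 for Prdm14, of -0.49 and -0.59 for Kit and of -0.78 and -0.39 for Tfap2c. Ooep, a partner of Khdc3 in the subcortical maternal complex, had log2 differences of -0.66 and -0.48, and Tex19.1 of -0.87 and -0.41. Without either WT library, the KO4 count of 16 called genes and the KO8 count of 14 were lower, as were the counts over all genes.

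In naive cells, reads were recovered for few of the list. In KO4, 1 of 22 tested rose and 1 fell, and in KO8 the 3 of 24 that were called all rose. Of all genes, 9.26% rose and 8.56% fell in KO4, 11% rose and 5.15% fell in KO8, and 5.64% rose and 3.89% fell in both. The KO4 count of 2 became 0 without WT library a or KO4 library b and 1 without WT library b or KO4 library c, and the KO8 count of 3 became 1 without KO8 library a or b. Khdc1a, an oocyte gene, rose in both clones, from 31.7 normalised reads to 62.7 in KO4 and 149.9 in KO8, with log2 differences of 0.96 ± 0.27 and 2.23 ± 0.23 (limma adjusted p = 0.0132 and 1.34e-06). In NPCs, 1 of 49 rose (Tfap2c) and 2 fell (Sohlh2 and Stra8) in KO4, named here after their values were seen. WT and KO cultures at this stage had both received retinoic acid, and its part in these values was not tested. In KO8 none of 51 was called by limma, where 7 had an unadjusted p under 0.05, all 7 in the upward direction, and voom weights also called none. Over all genes, 8.92% rose and 6.85% fell in KO4 and 4.45% rose and 2.21% fell in KO8 at this stage. Without either KO8 library, some list genes were called in KO8, and the count over all genes was higher too. The NPC KO4 count of 3 was higher without WT library a, where the count over all genes was not. Such fits leave 1 library in a group, so nothing is read from their counts.

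**Figure D5:**
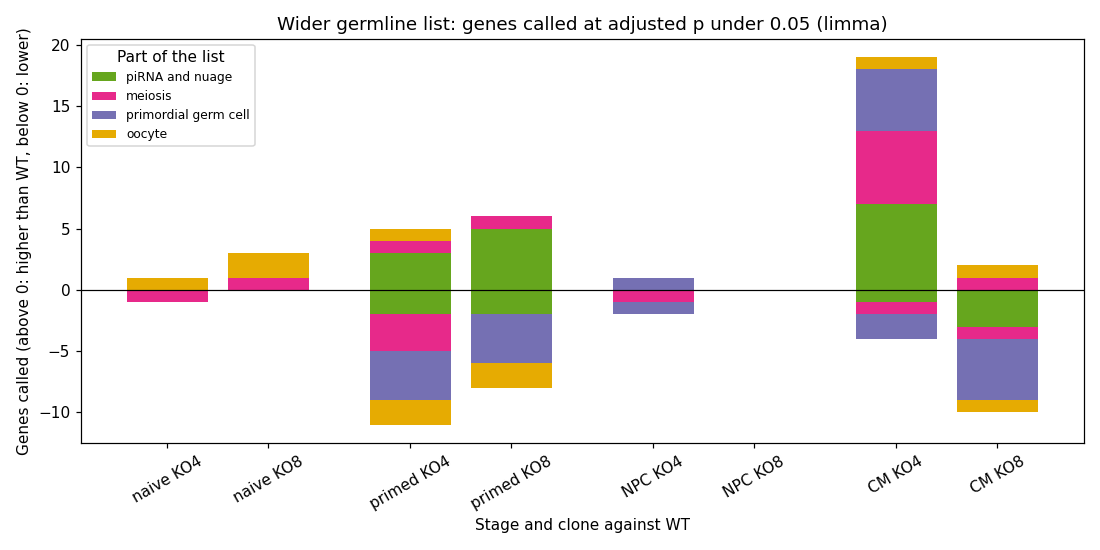
Number of genes of the wider germline list called higher (above 0) or lower (below 0) than WT by limma at an adjusted p under 0.05, for each stage and clone, split by part of the list. The tallest bar upwards is KO4 in CM samples with 19 genes, and the tallest downwards is KO4 in primed cells with 11.

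Repressors of germline genes and genes related to them were also examined. The list held 28 genes of the PRC1.6 complex and of DNA and H3K9 methylation. Among them are Tet1 and Tet2, which encode enzymes of DNA demethylation. Most of the 28 were expressed at levels where reads could not be recovered. Thus 3 were tested in primed cells, 5 in NPCs and 4 in CM samples, and none in naive cells. In primed cells and NPCs none was called by limma in either clone. At an unadjusted p under 0.05 there were 2 in primed KO4, 1 in primed KO8, 2 in NPC KO4 and 0 in NPC KO8, and voom weights called none. In CM samples, Dnmt3l, Pcgf6 and Ring1 rose and Tet2 fell in KO4, and Dnmt3l fell in KO8. These were named after their values were seen. Over all genes in CM samples, 21.4% rose and 26.4% fell in KO4, and 10% rose and 10.9% fell in KO8. The shares for primed cells and NPCs are given with the wider list, and with so few genes tested nothing is read from these counts. Dnmt3l, the cofactor of de novo DNA methylation, which is also expressed in germ cells, had a WT mean of 197 normalised reads, 489.8 in KO4 and 32.4 in KO8.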

How the data were processed

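The authors trimmed reads with Trim Galore 0.6.7, aligned them to mm9 with HISAT2 2.2, counted them per gene with featureCounts and ran DESeq2 1.46.0. They deposited 8 tables, 1 for each clone against WT at each stage. The base mean, the signal used here, is the authors' mean of size-factor normalised reads over the libraries compared. The 5 other columns hold the authors' own comparisons (log2 fold changes, their standard errors, Wald statistics, p-values and adjusted p-values) and were not used.

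Whole reads per library were recovered from the base means. A gene read in 1 library shows that library's weight. With all weights known, the 2 base means of a stage, printed to 10 significant digits, were searched for sets of whole reads. WT libraries enter both tables and KO libraries 1, which gives the group but no replicate number. The search covered base means up to 100 in naive cells and 1000 elsewhere. A set was kept where it held at least 0.99 of the likelihood weight, which was met for 99.5% to 99.8% of the genes searched. Tested on simulated data, all 3734 kept sets were right with the usual spread between libraries and 10 of 3719 were wrong with a wider one. Among recovered values from 1 to 10 reads, 62.1% to 65.7% were even, where single reads would give about as many odd values, so the intervals and floors, which treat reads as independent and cover counting error only, may be too narrow. p-values measure only the spread between libraries, which may be technical.

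No count model was used, because no deposited column holds counts. Each clone was compared with WT by limma 3.58.1 (R 4.3.3) with a mean-variance trend, on log2 of normalised reads plus 0.5, for genes with a mean of at least 5. Libraries were simulated for each of the 8 comparisons, all with the same rule for the spread between libraries. There limma called from 58% (naive KO4, 3580 genes) to 73% (NPC KO8, 10363 genes) of genes given a log2 change of 1. It called 97% to 100% of those given 2. The disagreement between NPC KO8 libraries a and b was not simulated, so the share for NPC KO8 does not describe the real comparison. The members and gene lists were chosen with earlier results of these data known. Named were the 10 members, Zfp512b, and list genes whose calls had the same sign in both clones, at most 6 a stage by the smaller absolute log2 difference; genes named outside this rule are said to be so in the text. Standard errors of members come from the spread of log2 values in each group. KO8 libraries were set on the scale of the KO4 table through the WT libraries. The 4 stages were normalised separately by the authors. Gene positions are from GENCODE vM1 (mm9), where Khdc3 and Ct55 were matched by older symbols. A neural marker of the lists is not reported here.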

Additional observations from a re-analysis of the deposited data

Results flagged for a closer look

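Several members differed from WT in opposite directions in the 2 clones at a stage, or in 1 clone at different stages, with no overlap of libraries on either side. These differences were chosen from the values and were not tested. Given as the KO8 effect minus the KO4 effect on the log2 scale, they were -4.23 for Tdrd12 and -1.17 for Sycp3 in CM samples and 1.49 for Stk31 in NPCs. Within KO4, the CM effect minus the NPC effect was 2.01 for Tdrd12 and 3.42 for Ct55, and the NPC effect minus the primed effect was 3.19 for Khdc3 and -3.82 for Ct55. Within KO8, the CM effect minus the primed effect was -2.77 for Stk31 and -2.65 for Ddx4, the CM effect minus the NPC effect was -3.18 for Stk31 and -5.79 for Khdc3, and the NPC effect minus the primed effect was 3.84 for Khdc3. The Khdc3 values rest on 2 reads in the NPC WT libraries and the CM values of Ct55 on 2 reads in WT, so they depend on the added 0.5. In KO4, 1 library of Khdc3 in NPCs and 1 of Ct55 in CM samples had 2 reads, as 1 WT library did. Their separation from WT there rests on scaling alone, as does that of Tdrd12 in NPC KO4. Single libraries also set several of the effects: that of Stk31 in NPCs was 0.31 in KO8 without KO8 library b and -0.15 in KO4 without KO4 library a, that of Khdc3 in NPC KO4 was 0.95 without WT library b and 3.21 without WT library a, and that of Ct55 in CM KO4 was 0.49 without WT library a and 2.79 without WT library b.

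In the wider germline list, 7 genes were called by limma in both clones in CM samples with opposite signs. The KO8 effect minus the KO4 effect was -3.92 for Morc1, -3.62 for Ooep, -4.57 for Tex14, -4.10 for Dppa2, -4.18 for Dppa3, -3.60 for Dppa4 and -3.27 for Tfap2c. The difference itself was not tested. The naive pluripotency markers Nanog, Esrrb, Zfp42 and Nr0b1 were likewise called higher in KO4 and lower in KO8 at this stage, and their part in these values was not tested.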

How the results depend on the processing

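No paired analysis was possible because the recovered libraries carry no replicate numbers. No member whose libraries did not overlap WT changed sign with recomputed size factors. A pseudocount of 2, a stricter recovery or a library left out cannot reverse groups that do not overlap. Those settings therefore do not test the sign. A pseudocount of 2 moved 5 of the member differences by more than the spread, all toward 0 (Tdrd1 and Khdc3 in NPC KO8, and Stk31, Mael and Khdc3 in CM KO8). Mael in CM KO8, at -2.96, also moved to -3.68 without WT library a and to -2.24 without WT library b. The pooled levels of 14 of 40 pairs of member and stage moved when taken from the KO8 table. Member counts did not move with recomputed size factors or a stricter recovery. Left with 1 library, a group separates from the other more easily. Leaving out 1 library, the counts above WT in both clones ranged from 1 to 3 in NPCs and from 0 to 1 in CM samples, and those below in both from 0 to 3 and from 0 to 1. Per clone, the counts above WT ranged from 1 to 3 (NPC KO4), 4 to 8 (NPC KO8), 5 to 8 (CM KO4), 0 to 1 (CM KO8) and 0 to 1 (naive KO8), and those below from 0 to 5 (NPC KO8) and 0 to 1 (CM KO4).

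Calls on the wider germline list ranged, without 1 library, from 0 to 3 (naive KO4), 1 to 3 (naive KO8), 4 to 15 (primed KO4), 9 to 11 (primed KO8), 3 to 7 (NPC KO4), 0 to 7 (NPC KO8) and 6 to 22 (CM KO4); a group left with 1 library is assumed to vary like the other. With no filter on low values the calls on the list were 7 in primed KO4 and 8 in primed KO8. With a mean of at least 20 they were 4 in naive KO4 and 7 in CM KO8. With a log2 difference of at least 1 they were 1 in naive KO4 and 3 in each primed clone. One fit of the 3 groups gave 1 in NPC KO4 and 1 in NPC KO8. The cause of these changes was not tested, other than that fewer genes are tested or called by construction under a higher minimum. Depth limits the members at CM and NPC stages, where several have under 10 reads a library, and the recovery limits those in naive cells.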

Other observations

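Two-cell-like markers, genes of the embryo's first transcription that a small share of stem cells also switches on, were higher in both clones in naive and primed cells. In naive cells, Zscan4c, Zscan4d, Zscan4f and Tcstv3 rose by limma in both clones (4 of 5 markers tested in KO4 and 4 of 4 in KO8). Zscan4d, a zinc finger gene of that state, went from a WT mean of 15.1 normalised reads to 146 in KO4 and 76.9 in KO8, with log2 differences of 3.37 ± 0.30 (adjusted p = 1.14e-08) and 2.43 ± 0.34 (adjusted p = 3.59e-05). The sum of the 5 markers with recovered reads ranged from 42.8 to 52.3 in WT, 336 to 354 in KO4 and 169 to 249.4 in KO8. In primed cells the sum was 110.3 to 139 in WT, 321 to 441 in KO4 and 587 to 645 in KO8, and 4 of 5 rose in KO4 and 5 of 5 in KO8. In NPCs, 1 of 5 (Tcstv3) rose in KO8, from 10.5 to 62.8 normalised reads (limma adjusted p = 0.0272), while in KO4 it went from 10.1 to 21.9 (adjusted p = 0.18), with sums of 109 to 164 in WT, 158 to 167 in KO4 and 311 to 440 in KO8. Tcstv1 was at 0 in every table. Zscan4 genes are near-identical copies, so reads may be split between them. Their part in the germline gene values was not tested.

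Markers of gonadal somatic cells were followed as Sox9, Amh, Foxl2, Cyp19a1 and Inhbb. In CM samples, Foxl2, a transcription factor of granulosa cells, fell in both clones, from a WT mean of 188 normalised reads to 27.0 in KO4 (limma adjusted p = 0.000135) and from 194 to 35.6 in KO8 (adjusted p = 0.000309), and Sox9 and Inhbb fell in KO8. Of the other comparisons, Sox9 rose in NPC KO4 and Inhbb fell in primed KO8, and the limma adjusted p of the 2 markers tested in naive cells, Amh and Inhbb, was 0.521 or above in each clone. Cyp19a1, the aromatase gene, was at 0 in the primed, NPC and CM tables. The other 4 summed in CM samples to 657 to 897 in WT, 731 to 825 in KO4 and 355 to 419 in KO8.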
